A study of Mus musculus with 2 samples.

Results

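Nuclear receptors are transcription factors that bind DNA through a zinc finger domain and, in most cases, a small lipophilic ligand through a second domain. The 33 genes described here are the receptors for fatty acids, oxysterols, retinoids, thyroid hormone, vitamin D, foreign compounds and steroids, together with receptors that have no accepted hormone. Members of the family that belong to the circadian clock or to bile acid sensing were set apart by the rule. All 33 were chosen by symbol from the 22609 gene symbols in the count tables, and all 33 were found there. Of these, 28 had at least 50 reads summed over both libraries and were compared, against 11411 measured genes in all. The other 5 (Nr2f1, Nr4a2, Hnf4g, Vdr and Nr4a3) are given by their counts.

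RNA came from livers of male C57BL/6 mice in 2 groups, wild type and whole-body Lrg1 knockout, with 1 library each. Mice of both groups had eaten a diet with 45% of calories from fat for 16 weeks, starting at 8 weeks of age. Lrg1 encodes a secreted leucine-rich glycoprotein, and the question was how its loss relates to liver gene expression. How many mice entered a library, the hour of collection and the feeding state are not given in the labels. There is no replicate, so the values compare 2 libraries and not 2 genotypes, and every interval below is a 95% interval for counting error alone.

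The libraries held 23311906 reads in genes (wild type) and 18738397 reads in genes (labelled Lrg1 knockout). Lrg1 itself had 26958 and 17572 reads, so the library labelled Lrg1 knockout held many Lrg1 reads. Which part of the gene was deleted is not stated in the labels, so these reads do not check the label. All directions below are drawn from the library labelled Lrg1 knockout over wild type. Liver identity was clear in both libraries, since all 10 hepatocyte markers were measured and summed to 125900 and 109700 CPM (reads per 1000000 of the scaled library). Markers of T, B and NK cells summed to 3.80 and 5.24 CPM, those of neutrophils to 7.02 and 7.99, and those of skeletal muscle to 0.971 and 0.985. Erythroid markers summed to 111 and 136 CPM, nearly all from Alas2, and pancreas markers to 16.7 and 23.1 CPM, all from Cela1. The globin genes Hba-a1 and Hbb-b1 had 0 reads in both libraries, and blood content was not tested.

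In liver these receptors act largely as pairs and networks. RXR proteins pair with PPAR, LXR, RAR, thyroid hormone, vitamin D, PXR and CAR receptors on repeated hexamers. HNF4 alpha and the estrogen-related, COUP-TF and LRH-1 proteins can bind related hexamers without RXR, as pairs of their own or singly. NR4A receptors have a closed ligand pocket and are set mainly by how much of them is made, with rapid transcription after cyclic AMP, calcium or growth factor signals. For that reason their RNA level can change within minutes to hours.

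The largest difference among the 28 receptors was that of Nr4a1 (NUR77), with 59 wild-type reads against 271 in the library labelled Lrg1 knockout. That is 2.60 CPM (1.98 to 3.36) against 14.1 CPM (12.4 to 15.8), both with exact Poisson intervals. The ratio of 5.40 (exact interval 4.06 to 7.28), or 2.42 on the log2 scale, was higher than in 99.9% of measured genes. Nr4a1 was the only receptor of the 28 at least 2-fold higher and 0 were at least 2-fold lower, while among all measured genes 1.7% were 2-fold higher and 2.5% were 2-fold lower, 4.2% in either direction. Its family members stayed below the read minimum. Nr4a2 (NURR1) had 13 and 22 reads, 0.574 CPM (0.306 to 0.981) and 1.14 CPM (0.715 to 1.73), with intervals that overlapped. Nr4a3 (NOR1) had 2 and 1 reads. The quotient of Nr4a1 to Nr4a2 was 2.71-fold higher in the library labelled Lrg1 knockout (1.18 to 5.99, exact conditional interval).

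The NR4A genes are textbook targets of CREB, the factor that binds the cAMP response element. The windows before their RefSeq transcription starts (GRCm38.p6) are printed because they hold more copies of its core than any other receptor window. Capitals mark the core of that element, TGACG, or CGTCA where it lies on the other strand.
Nr4a1, chr15:101266596-101266845, plus strand: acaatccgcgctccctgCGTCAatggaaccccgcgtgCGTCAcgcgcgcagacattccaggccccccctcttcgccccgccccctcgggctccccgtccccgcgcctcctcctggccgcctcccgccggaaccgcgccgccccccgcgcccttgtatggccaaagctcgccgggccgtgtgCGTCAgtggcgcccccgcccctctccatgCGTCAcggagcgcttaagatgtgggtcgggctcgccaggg
Nr4a2, chr2:57124004-57124253, minus strand: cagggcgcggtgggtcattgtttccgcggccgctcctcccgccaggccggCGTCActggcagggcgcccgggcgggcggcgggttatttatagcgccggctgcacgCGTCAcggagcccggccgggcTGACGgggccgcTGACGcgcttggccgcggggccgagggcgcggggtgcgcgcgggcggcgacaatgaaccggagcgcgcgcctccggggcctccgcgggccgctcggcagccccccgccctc
Nr4a3, chr4:48045055-48045152, plus strand: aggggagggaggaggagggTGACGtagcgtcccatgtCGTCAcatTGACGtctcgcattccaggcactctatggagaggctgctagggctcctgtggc
The Nr4a3 stretch stops after 98 bases, where annotated exon begins. Each of the 3 windows of 250 bases held 4 cores. A count of 4 or more was found in 45 of 32851 mouse windows of that length (0.137%), and 17.8% held at least 1. Windows were listed for 30 receptors, 49 windows in all, and NR4A genes were the only ones among them with more than 1 core. The complete element TGACGTCA was in 1.55% of all windows and in 0 of the 49. The Nr4a1, Nr4a2 and Nr4a3 windows held G or C at 74.4%, 80.0% and 63.6% of positions, against a median of 61.2% over receptor windows and 52.4% over all windows. The core holds a CG pair, and the share expected at that base composition was not tested. All 3 genes had the same number of cores, while only Nr4a1 had enough reads for a ratio.

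Genes known to be induced through CREB, a list that leaves out the receptors themselves, moved in both directions. Of 11 measured genes 8 were higher and 3 lower, with a median log2 ratio of 0.58, against -0.01 over all measured genes. Among all measured genes 48.3% were higher and 51.7% lower. Sik1, a kinase induced by cyclic AMP, had 176 and 798 reads (log2 ratio 2.41). G6pc, the last step of hepatic glucose release, was at 2.16 and Irs2 at 1.37. The clock gene Per1 was lower at -1.81, Fos was at -1.06 and Cebpb at -0.83. Ppargc1a, a coactivator that CREB induces in fasting liver, had 239 and 211 reads, and its interval (0.858 to 1.25) included no difference. Kupffer cell and macrophage markers, which mark cells that can also express Nr4a1, summed to 553 CPM and 416 CPM, with 9 of 10 lower. Markers of sinusoidal endothelium went the other way, with 298 CPM and 446 CPM and 9 of 10 higher. The part of CREB or of either cell type in the Nr4a1 value was not tested. In bulk liver, a different number of cells of a type and different RNA per cell cannot be told apart.

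Levels of different genes were compared as CPM per kilobase of exon, which ran from 0.0147 for Nr4a3 to 196 for Hnf4a in wild type. Hnf4a stood first in both libraries, at 138 CPM per kilobase in the library labelled Lrg1 knockout. Ppara followed with 152 and 130, then Rxra with 130 and 114. These 3 genes held 67.6% and 63.5% of all reads of the 33 receptors. A second tier in wild type held Nr1i3 (52.2), Nr1h3 (52.1), Nr1i2 (45.3) and Nr2f6 (31.2), all in CPM per kilobase. After a gap came Nr1h2 (11.9), Nr3c1 (11.7), Rxrb (10.3), Nr5a2 (9.03), Esrra (8.86), Rara (7.84), Thrb (6.31) and Pparg (5.70). At the bottom stood Nr2f1 with 11 reads in each library, Hnf4g with 4 and 3, Vdr with 2 and 2, and Nr4a3.

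**Figure D1:**
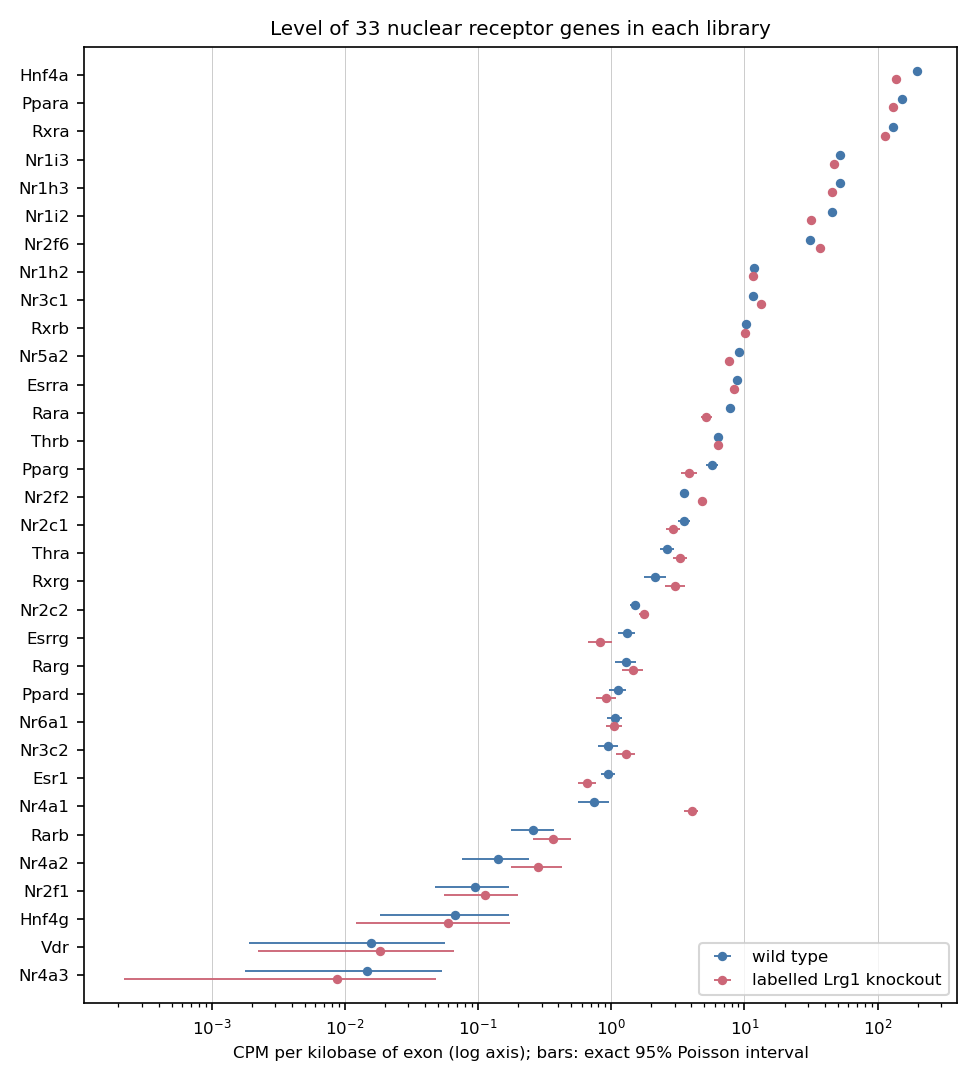
Level of each receptor gene in CPM per kilobase of exon (log axis), wild type in blue and the library labelled Lrg1 knockout in red, with exact 95% Poisson intervals, ordered by wild type. Points of the 2 libraries lie close together for most genes, with Hnf4a at 196 and 138 at the top and Nr4a1 (0.742 and 4.005) set apart.

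The order was much the same in both libraries. Of 33 receptors, 16 held the same place and 27 were within 1 place, and 2 moved by more than 3 places. Those were Nr4a1, from place 27 to 16, and Esrrg, from 21 to 26. Counting intervals of neighbours in the order overlapped for 19 of 32 pairs in each library. Among the 7 leading genes of wild type, only Nr1i3 and Nr1h3 overlapped. In the next tier Nr1h2 overlapped Nr3c1, Nr5a2 overlapped Esrra, Esrra overlapped Rara and Thrb overlapped Pparg. Nr1i2 and Nr2f6 changed places, with 45.3 and 31.2 CPM per kilobase in wild type against 31.7 and 37.2 in the other library. With the longest coding sequence as the length, Rxra came before Ppara in wild type, while Hnf4a stayed first.

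Of the 28 measured receptors 18 had a log2 ratio below 0 and 10 above, where 51.7% of all measured genes were below 0 and 48.3% above. Under total-count scaling, which moves every log2 ratio up by 0.08, they divided into 14 and 14. Their median was then 0.02, and that of all measured genes was 0.07. Counting intervals lay wholly below 1 for 12 receptors and wholly above for 8, where 26.6% and 22% of all measured genes did so. With total-count scaling the intervals lay below 1 for 10 receptors and above for 8, beside 2215 and 3601 of the 11411 measured genes. Among receptors with at least 2000 reads, 7 of 9 had an interval below 1, against 45.6% of the 2891 genes of that depth, and 60.9% of those genes had a log2 ratio below 0. None of the 9 was 1.5-fold lower, against 5.81%. The median of the 28 was -0.06, and -0.01 over all measured genes. At 1.5-fold, 2 receptors were lower (Esrrg and Rara) and 1 was higher (Nr4a1), against 6.91% and 5.85% of measured genes (12.8% in either direction). Under total-count scaling these became 0 lower and 1 higher, beside 629 lower and 878 higher among the 11411 measured genes. Apart from Nr4a1, the receptors lay within a narrow band, from -0.66 to 0.49.

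**Figure D2:**
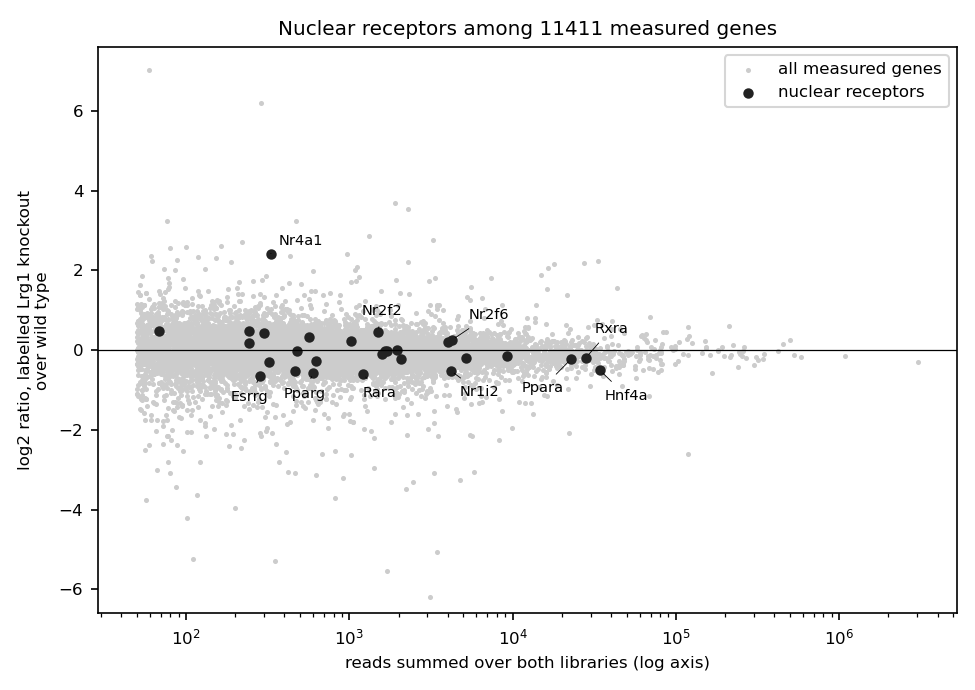
Log2 ratio of the library labelled Lrg1 knockout over wild type against summed reads (log axis) for all 11411 measured genes (grey) and the 28 measured receptors (black). Nr4a1 at 2.42 lies above the cloud, and the other receptors lie between -0.66 and 0.49.

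Hnf4a, which encodes the master regulator of hepatocyte identity, was lower in the library labelled Lrg1 knockout. It had 21423 and 12836 reads, 946 CPM (933 to 958) against 666 CPM (654 to 677). The ratio was 0.704 (0.689 to 0.719), a log2 ratio of -0.51, the lowest among the 9 receptors with at least 2000 reads except Nr1i2 at -0.52. Hepatocyte markers were at a median of -0.15, from -0.54 for Cps1 to 0.33 for Serpina1a, with 8 of 10 lower, or 6 of 10 under total-count scaling, and their part in the Hnf4a value was not tested. Nr5a2 (LRH-1), which controls bile acid and cholesterol genes, had 1206 and 875 reads (log2 ratio -0.23, ratio interval 0.780 to 0.931).

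HNF4 alpha target genes were measured in all 14 cases, with 10 lower and 4 higher and a median of -0.10. That count was 8 lower and 6 higher under total-count scaling. The 10 lower were 71.4% of the list, against 51.7% of all measured genes and 60.9% of those with at least 2000 reads. None of the 14 was 2-fold apart, against 4.2% of all measured genes. Apoa4, an apolipoprotein, was at -0.58 and Apoc2, the activator of lipoprotein lipase, at -0.37. Cyp8b1, a bile acid enzyme, was higher at 0.31. Of 5 LRH-1 targets, 4 were higher and 1 lower, with a median of 0.31 and a mean of 0.07. Plk3 stood at 1.02 and Apom, an apolipoprotein, at 0.39.

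Lipid-sensing receptors were lower or level. Ppara, the fatty acid sensor of hepatocytes, had 13198 and 9632 reads, 583 CPM (573 to 593) and 499 CPM (490 to 510), with a ratio of 0.857 (0.835 to 0.880). Pparg, the adipogenic receptor that can appear in fatty liver, had 381 and 219 reads, 16.8 CPM (15.2 to 18.6) and 11.4 CPM (9.90 to 13.0), with a ratio of 0.675 (0.569 to 0.799). Both thus had separate intervals in the 2 libraries. Ppard had 191 and 133 reads, and its ratio interval (0.651 to 1.03) included no difference. Nr1h3 (LXR alpha), the oxysterol receptor of liver, had 2970 and 2211 reads with a ratio of 0.875 (0.827 to 0.924). Nr1h2 (LXR beta), its widely expressed relative, had 902 and 752 reads and an interval from 0.888 to 1.08.

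Ratios between 2 receptors of the same library need no scaling between libraries. Ppara exceeded Pparg 26.7-fold per kilobase in wild type and 33.9-fold in the second library, a ratio 1.27-fold higher there (1.07 to 1.51, exact conditional interval). Nr1h3 exceeded Nr1h2 by 4.39-fold and 3.92-fold per kilobase, and the interval of that change ran from 0.798 to 0.9998. For Ppara against Ppard the interval, 0.834 to 1.32, included no difference.

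Target genes of the 3 lipid receptors differed from each other. All 23 PPAR alpha targets were measured, with 12 higher and 11 lower and a median of 0.07, or 14 and 9 under total-count scaling. Pdk4, which restrains glucose oxidation, was at 1.14, Ehhadh, a peroxisomal oxidation enzyme, at 0.84 and Acot1, an acyl-CoA thioesterase with near-identical neighbours and so uncertain, at 0.72. PPAR gamma targets had a median of -0.96, with 6 of 8 lower and 4 of these beyond 2-fold. The droplet protein Cidea was at -5.54, Mogat1 at -1.80 and Cidec at -1.40, while Lpl was at 0.41. Of adipocyte markers, Plin1, Lep and Retn had 0 reads in both libraries and Adipoq had 1 and 4, while Cfd, Cidec and Lipe were measured and lower. LXR targets were mixed, 5 higher and 7 lower with a median of -0.08, or 6 and 6 under total-count scaling. The desaturase Scd1 was at -2.60, Pltp at -1.08 and Srebf1 at -0.70, while the cholesterol exporter Abca1 was at 0.32.

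Among RXR genes, the shared partners, Rxra alone had an interval below 1. Rxra had 16088 and 12022 reads, 710 CPM (699 to 721) and 623 CPM (612 to 635), a ratio of 0.878 (0.857 to 0.899). Rxrb had 928 and 780 reads with an interval from 0.897 to 1.09. Rxrg, which is usually a receptor of muscle and brain, had 111 and 133 reads, a ratio of 1.41 (1.09 to 1.83). Rxra made up 91.3% and 89.7% of the RXR level per kilobase, and its ratio to Rxrb was 0.889 of that in wild type (0.805 to 0.982). The 13 partner genes summed to 2.38 times the RXR level per kilobase in wild type, against 2.26 times in the second library. Ppara gave 44.9% and 45.2% of that partner sum. These sums and shares depend on the exon lengths used, and other lengths were not tried for them. Nr1i3, for example, entered with 4414 exon bases, while its longest coding sequence has 1074.

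**Figure D3:**
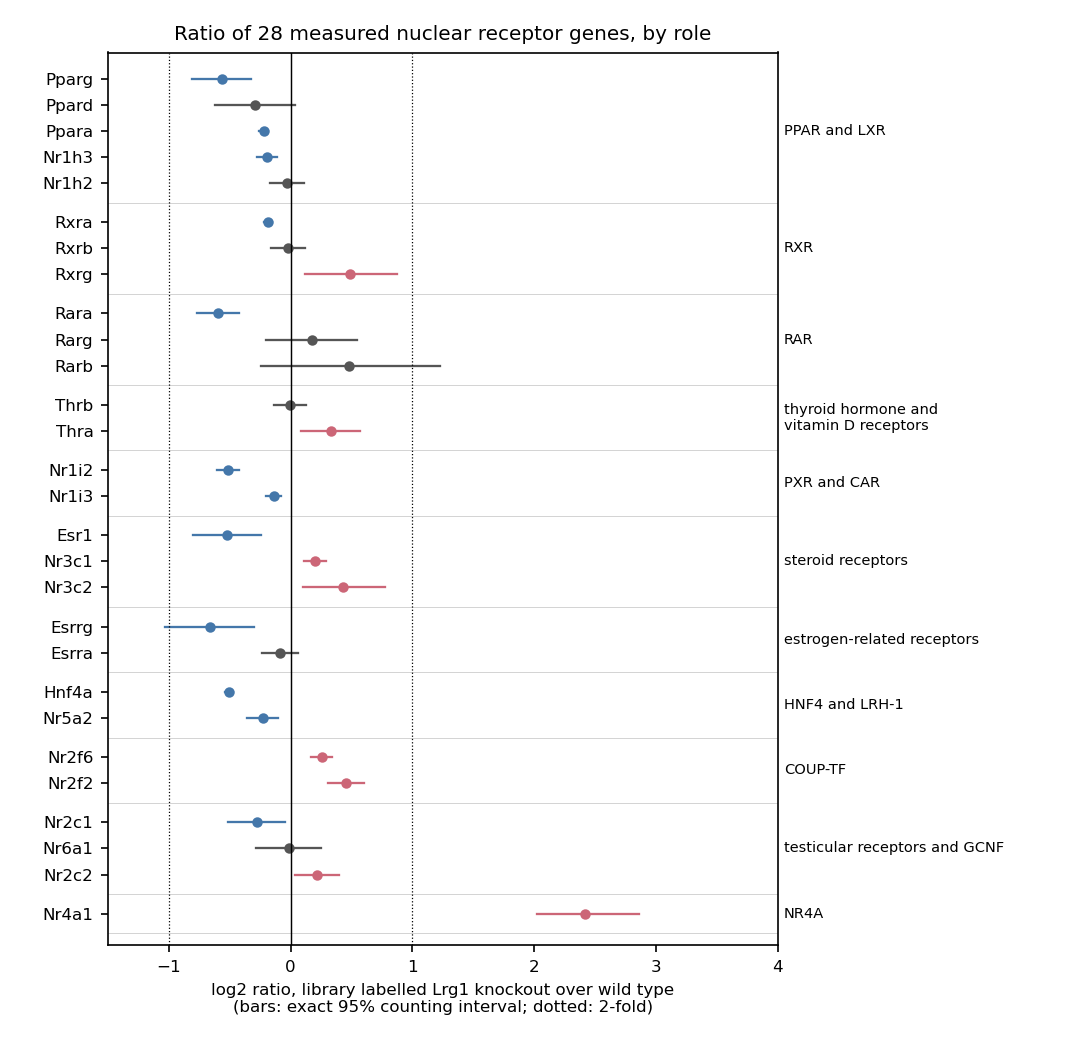
Log2 ratio of the library labelled Lrg1 knockout over wild type for the 28 measured receptors, grouped by role, with exact 95% counting intervals. Blue marks intervals below 0 (12 genes), red above 0 (8 genes) and grey those that include 0 (8 genes), and dotted lines mark 2-fold. Nr4a1 alone lies beyond 2-fold.

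Retinoic acid receptors divided by subtype. Rara had 775 and 436 reads, 34.2 CPM (31.8 to 36.7) against 22.6 CPM (20.5 to 24.8), with a ratio of 0.661 (0.586 to 0.744). Rarg had 124 and 119 reads and Rarb 31 and 37, and both intervals included no difference (0.869 to 1.46 and 0.846 to 2.34). The ratio of Rara to Rarb was 0.472 of its wild-type value (0.279 to 0.794). Rarb, however, shares 34.1% of its exon bases with Top2b on the opposite strand. Top2b had 1051 and 946 reads, and no source used here states whether the counting kept strands apart. The effect of that overlap on the Rarb count is therefore not known.

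Genes that supply or remove retinoids were mixed, with 6 of 14 measured genes higher, 8 lower and a median of -0.12. Cyp26b1, which degrades retinoic acid, was at -0.73, and the aldehyde dehydrogenases Aldh1a7 and Aldh1a1 at -0.59 and -0.49. Dhrs3, which turns retinaldehyde back to retinol and responds to retinoic acid, was higher at 0.40. In the list of retinoic acid targets, 5 of 8 were measured, 3 higher and 2 lower, with Tgm2 at -0.38. Cyp26a1, the classical responsive gene, had only 21 and 17 reads. Stellate cell markers, which mark the cells that store retinoids, were higher in 8 of 10 cases with a median of 0.15 and a mean of 0.01, and Col1a1 and Col3a1 were lower.

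Thyroid hormone receptors differed in their balance. Thrb, the main form of hepatocytes, had 1059 and 897 reads, 46.7 CPM (44.0 to 49.7) and 46.5 CPM (43.5 to 49.7), a ratio of 0.995 (0.909 to 1.09). Thra had 274 and 293 reads, a ratio of 1.26 (1.06 to 1.49). Thrb exceeded Thra 2.41-fold per kilobase in wild type but 1.91-fold in the second library, and this quotient was 0.792 of that in wild type (0.654 to 0.959). The 3′ end of Thra overlaps Nr1d1 on the opposite strand over 263 exon bases, 5.70% of its exon length, and Nr1d1, a clock gene, had 3444 and 1058 reads. The effect of that overlap on the Thra count was not tested. Of 7 thyroid hormone targets 6 were lower (5 under total-count scaling), with a median of -0.65, where 51.7% of all measured genes were lower. Thrsp, a lipogenic regulator, was at -3.47, the corepressor gene Hr at -1.03 and Bcl3 at -0.73, while Dio1, the liver deiodinase, was at -0.14 and Me1 at -0.08 (interval 0.878 to 1.02). Of 5 hormone supply genes 4 were lower, or 2 under total-count scaling. Among them Serpina7, which encodes thyroxine-binding globulin, was at -0.88, and the interval of the transporter Slc16a10 (-0.07) ran from 0.897 to 1.01.

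Vdr was barely detected in both libraries, with 2 reads in each, 0.0883 CPM (0.0107 to 0.319) and 0.104 CPM (0.0126 to 0.375). Of 5 genes of vitamin D handling 3 were measured. Gc, the vitamin D binding protein of plasma, had 155659 and 114861 reads (log2 ratio -0.21), Cyp27a1 was at -0.28, and the 25-hydroxylase Cyp2r1, at 6.89 and 6.95 CPM, was at 0.01 (interval 0.795 to 1.28). Cyp27b1, which makes the active hormone, had 1 and 0 reads, and Cyp24a1, which degrades it, had 0 reads in both.

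Both xenobiotic receptors were lower, PXR by more. Nr1i2 (PXR) had 2621 and 1560 reads, 116 CPM (111 to 120) against 80.9 CPM (76.9 to 85.0), with a ratio of 0.699 (0.656 to 0.745). Nr1i3 (CAR) had 5222 and 4034 reads and a ratio of 0.907 (0.871 to 0.946), which became 0.961 (0.922 to 1.002) under total-count scaling and then included no difference. Without any scaling, the quotient of CAR to PXR was 1.30-fold higher in the library labelled Lrg1 knockout (1.20 to 1.40). Tomm40l lies on the opposite strand over 74.8% of the annotated exon bases of Nr1i3, with 203 and 146 reads. The effect of that overlap on the Nr1i3 count was not tested. Of 15 measured target genes of CAR and PXR, 10 were lower and 5 higher, with a median of -0.31, and under total-count scaling 9 and 6. The 10 lower were 66.7% of the list, against 51.7% of all measured genes and 60.9% of those with at least 2000 reads. Cyp2b10, the classical CAR target, had 84 and 12 reads (-2.53), the uptake carrier Slco1a4 was at -1.43 and Por, the electron donor of P450 enzymes, at -0.92. Cyp3a11, the classical PXR target, had 31424 and 26689 reads and a ratio interval from 0.982 to 1.01. Genes of the Cyp2 family have near-identical copies, so their single values are uncertain.

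Corticosteroid receptors were higher and the estrogen receptor lower. Nr3c1, the glucocorticoid receptor, had 2031 and 1989 reads, 89.7 CPM (85.8 to 93.6) against 103 CPM (98.7 to 108), with a ratio of 1.15 (1.08 to 1.22). Nr3c2, the mineralocorticoid receptor, had 139 and 160 reads and a ratio of 1.35 (1.07 to 1.71). The quotient of both did not differ beyond counting error (0.667 to 1.08). Esr1, the estrogen receptor alpha, had 292 and 173 reads, 12.9 CPM (11.5 to 14.5) against 8.97 CPM (7.68 to 10.4), a ratio of 0.696 (0.573 to 0.843).

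All 17 glucocorticoid receptor targets were measured, with 11 lower and 6 higher. That is 64.7% lower, against 51.7% of all measured genes and 60.9% of those with at least 2000 reads. The median and the mean were each -0.51, while the summed reads of the list gave a ratio of 1.11. Lpin1, a phosphatidate phosphatase, was at -3.05, Fkbp5, the co-chaperone that dampens the receptor, at -1.98 with 2508 and 541 reads, and Per1 at -1.81. Zbtb16 was at -1.79 and Tsc22d3 at -0.51. In the other direction stood Igfbp1 at 1.80, Sgk1 at 0.71, Tat, the tyrosine aminotransferase, at 0.66 and Pck1 at 0.58. Per1 and Lpin1 also follow the clock. Of the 17 genes, 6 stand in a second list as well: Per1, Pck1 and Dusp1 among CREB-induced genes, Fkbp5 among chaperones, Klf9 among thyroid hormone targets and Angptl4 among PPAR alpha targets. Of 9 genes for steroid supply and receptor folding 6 were lower, with Akr1d1, which inactivates steroids, at -0.75 and Hsp90ab1, the receptor's chaperone, at -0.43. Hsd11b1, which regenerates active glucocorticoid, was at 0.21.

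Estrogen-related receptors differed by subtype. Esrrg had 184 and 99 reads, 8.12 CPM (6.99 to 9.38) against 5.13 CPM (4.17 to 6.25), with a ratio of 0.632 (0.490 to 0.811), the lowest of the 28. Esrra, a regulator of mitochondrial genes, had 880 and 705 reads and an interval from 0.851 to 1.04. Their quotient, Esrra to Esrrg, was 1.49-fold higher in the library labelled Lrg1 knockout (1.14 to 1.96). The 10 ERR alpha targets divided evenly into 5 higher and 5 lower, with a median of 0.02, or 7 and 3 under total-count scaling. Cycs, the cytochrome c gene with many processed copies and so uncertain, was at 0.57, and Cox5b, a subunit of cytochrome c oxidase, at -0.36.

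COUP-TF receptors, which compete with HNF4 alpha for the same repeats, were higher. Nr2f2 (COUP-TFII), a receptor of vein endothelium and mesenchyme, had 691 and 805 reads, 30.5 CPM (28.3 to 32.9) against 41.7 CPM (38.9 to 44.7), a ratio of 1.37 (1.23 to 1.52). Nr2f6 had 2108 and 2141 reads and a ratio of 1.19 (1.12 to 1.27). Nr2f1 had 11 reads in each library. Hnf4a exceeded Nr2f2 by 55.4-fold per kilobase in wild type but 28.5-fold in the second library, so that their quotient was 0.514 of the wild-type value (0.463 to 0.571). Markers of sinusoidal endothelium were higher in 9 of 10 cases, with summed levels of 298 CPM and 446 CPM, and their part in the Nr2f2 value was not tested. Nr2f6 shares 54.4% of its exon bases with Ocel1 on the opposite strand, which had 132 and 112 reads.

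Testicular receptors and GCNF are orphan receptors that bind direct repeats, and their log2 ratios ran from -0.28 to 0.22. Nr2c1 (TR2) had 368 and 258 reads with a ratio of 0.824 (0.700 to 0.968), which included no difference under total-count scaling (0.741 to 1.025). Nr2c2 (TR4) had 514 and 509 reads with a ratio of 1.16 (1.03 to 1.32), and 30.7% of its exon bases lie opposite Mrps25. The quotient of Nr2c2 to Nr2c1 was 1.41-fold higher in the library labelled Lrg1 knockout (1.15 to 1.74). Nr6a1 (GCNF) had 260 and 219 reads and an interval from 0.823 to 1.19.

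Coregulators, the proteins that receptors recruit, showed small differences. All 12 coactivators were measured, 5 higher and 7 lower with a median of -0.02, which turned to 8 and 4 under total-count scaling. Ppargc1b (PGC-1 beta), which coactivates lipogenic and mitochondrial genes, was the only one 2-fold apart, with 180 and 61 reads (-1.32, ratio interval 0.293 to 0.535). Med1, the Mediator subunit that receptors contact, was at -0.34 and the acetyltransferase Kat2b at 0.30. All 9 corepressor genes had a log2 ratio below 0, with a median of -0.22, although 2 of them turned higher under total-count scaling. Of all measured genes 51.7% had a log2 ratio below 0. The interval lay below 1 for 3 of the 9 corepressors and for 26.6% of all measured genes. Gps2, a subunit of the NCoR complex, was at -0.45, Sin3a at -0.26 and Lcor at -0.25 (interval 0.614 to 1.15), and Ncor1, the scaffold of the complex, had an interval from 0.911 to 1.01.

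**Figure D4:**
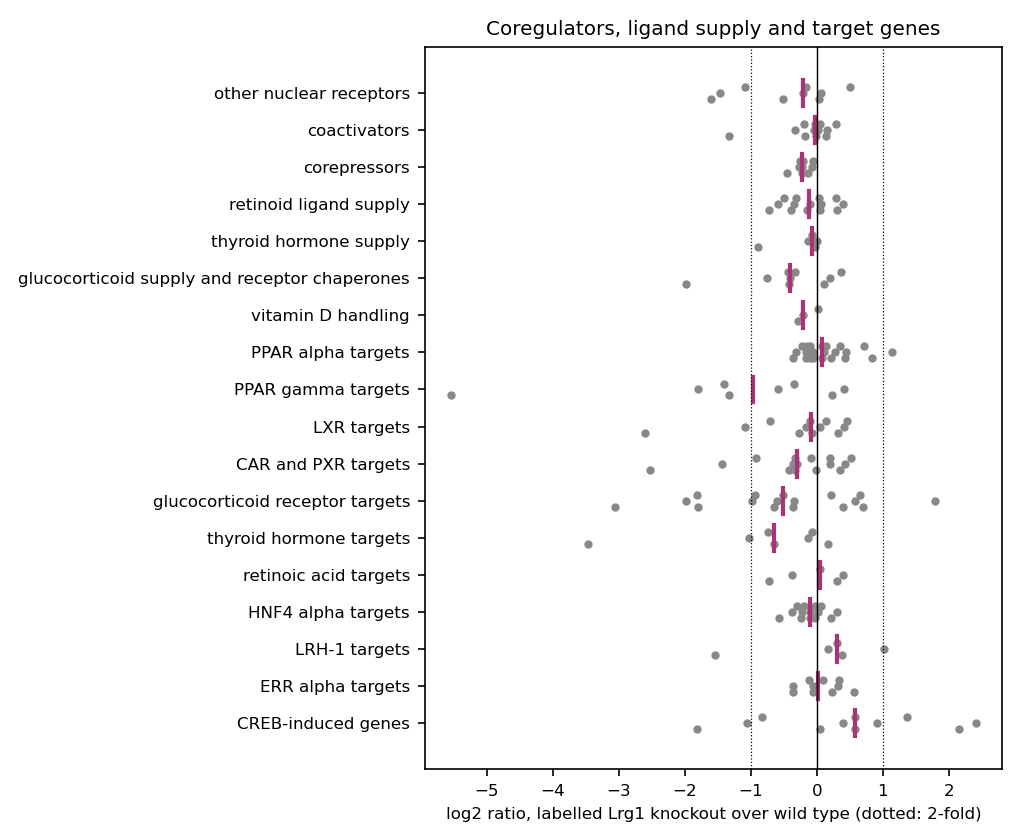
Log2 ratio of the library labelled Lrg1 knockout over wild type for each measured gene (grey points) of 18 lists, with the list median as a purple bar and 2-fold as dotted lines. The median is lowest for PPAR gamma targets (-0.96) and highest for CREB-induced genes (0.58).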

How the data were processed

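Liver RNA was sequenced in 1 wild-type library and in 1 library labelled Lrg1 knockout. As stated per the labels' protocols, poly(A) RNA went into a stranded kit and was read as single-end 50-base reads. Per the submitters' processing notes, bcl2fastq, TopHat2 and HTSeq and the build mm9 were used, while versions, annotation and strand setting were not given in the sources used here. Raw counts of reads for each gene symbol were deposited by the authors and taken unchanged. Lines that name no gene were left out. Reads outside genes were 14.01% and 14.44% of uniquely aligned reads. Alignments that were not unique, which enter no gene count, were 50.34% (wild type) and 58.03% (labelled Lrg1 knockout) of unique and non-unique alignments together. The effect of that difference on the ratios was not tested.

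Counts were scaled with TMM (edgeR 4.0.16, R 4.3.3), with a prior count of 0.5 for log2 ratios, and 50 summed reads were the minimum. Ratios have Clopper-Pearson, counts Poisson and quotients conditional exact intervals. Reads lack molecular identifiers, so intervals cover counting error only. No test was made and no p-value is given, as each group has 1 library. Exon lengths and overlaps came from GENCODE M21 (GRCm38), promoter windows from RefSeq. List medians stand beside that of all measured genes; steps were tested on simulated data. Named genes were all members, Lrg1, and the 3 measured genes farthest from 0 in each list; further genes, and the class of at least 2000 reads, were chosen after their values were seen. A few genes that this rule names are not reported here. Members and lists were chosen with earlier results of these data known. Other settings tried were DESeq2 1.42.0 size factors, total counts with and without the 20 most abundant genes, a prior count of 2, thinning, read minimums of 1, 10 and 200, means and other lengths. Scripts ran on Python 3.11.15 with scipy 1.17.1 and numpy 2.4.6.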

Additional observations from a re-analysis of the deposited data

How the results depend on the processing

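Directions held in all scaling, prior and thinning alternatives for 24 of 28 receptors, with Nr4a1 between 2.39 and 2.503 and Hnf4a between -0.51 and -0.42. The 4 that turned, Nr1h2, Rxrb, Thrb and Nr6a1, all had intervals that included no difference. Receptors 1.5-fold higher numbered 2 after thinning, from 10 reads and without a filter; those 1.5-fold lower numbered 3 after thinning, 0 by total count and 1 once the 20 most abundant genes were left out, against 2. The median of the receptors was -0.06, 0.02 by total count (0.07 over all measured genes) and 0.01 as a mean. By total count, list medians were 0.011 for thyroid hormone supply, -0.12 for vitamin D handling, 0.16 for PPAR alpha, -0.22 for CAR and PXR, -0.013 for HNF4 alpha and 0.40 for LRH-1 targets. Without the 20 most abundant genes they were -0.013, -0.15, 0.13, -0.25 and -0.037 for the first 5. As means they were -0.49 for other nuclear receptors, -0.22 for thyroid hormone supply, -0.16 for vitamin D handling, 0.13 for PPAR alpha, -1.29 for PPAR gamma, -0.30 for LXR, -0.85 for thyroid hormone and 0.071 for LRH-1 targets. CAR and PXR targets were at -0.19 from 10 reads and without a filter, and thyroid hormone targets at -0.40 from 200 reads. For these the cause was not tested. By the longest transcript 30 of 33 receptors stayed within 2 places in wild type, and by the longest coding sequence, an alternative chosen after seeing the data because no protein table was used here, 26 did. No paired analysis was possible because each group has 1 library. Depth limits Nr4a2, Nr4a3, Vdr, Hnf4g and Nr2f1, where 1 read is worth 0.0441 or 0.0519 CPM.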

Other observations

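Of 16 further nuclear receptor genes of the mouse that lie outside the 33, 9 were measured, 3 higher and 6 lower, with a median log2 ratio of -0.21. Nr0b2 (SHP), a corepressor-like receptor without a DNA-binding domain, had 1482 and 414 reads (-1.61), and Nr1d1 (REV-ERB alpha), a clock repressor, was at -1.47. Nr1d2 was at -0.51, and Nr1h4 (FXR), the bile acid receptor, at -0.21. Nr1h5 had 70 and 85 reads (ratio interval 1.03 to 1.99). Rora and Esrrb had intervals that included no difference. The other 7, among them Esr2, Pgr and Nr5a1, had 0 reads in both libraries. Among these 9 measured genes 3 were at least 2-fold lower, as were 0 of the 28 receptors described above and 2.5% of all measured genes. Whether the 9 genes differ from the 28 receptors was not tested.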
